A study of Mus musculus with 30 samples.

Results

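Genes of contractile stromal cells and of the epithelial to mesenchymal transition (EMT) were followed in mouse brain tumors and in normal brain. The 10 genes were chosen by name: the smooth muscle contractile genes Acta2, Tagln, Myl9 and Cnn1, the EMT transcription factor genes Snai1, Snai2, Twist1 and Prrx1, and the small leucine-rich proteoglycan genes Lum and Dcn. All 10 had a probe set that named a single gene, out of 19938 genes read from 30 arrays of the Affymetrix Mouse Gene 1.0 ST type. The tumors followed injection of Cre constructs, and the label of each tumor names the promoter of the construct and the brain region. GFAP is a promoter of astrocytes, SYN1 of neurons and NES of neural progenitors. There were 4 GFAP cortex tumors, 4 SYN1 cortex tumors, 7 GFAP hippocampus tumors, 4 NES hippocampus tumors, 3 GFAP tumors of the subventricular zone (SVZ), 4 samples of normal cortex and 4 of normal hippocampus. Mouse strain, age, tumor stage, the alleles that Cre acted on and any other part of the constructs are not given in the sources used here. The labels name no normal SVZ, so SVZ tumors were set against the mean of the normal cortex and normal hippocampus means. The labels do not tell whether each array was a different animal, so the p-values reflect the spread among these samples alone, and that spread may be technical.

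Smooth muscle cells, pericytes and activated fibroblasts contain bundles of actin filaments that shorten under myosin. Acta2 encodes smooth muscle alpha-actin, Tagln the actin-binding protein transgelin, Myl9 a regulatory light chain of myosin, and Cnn1 calponin, which binds actin and restrains myosin. Genes of this kind are known targets of serum response factor (SRF) and its cofactors of the myocardin family, which act through CArG boxes in promoters. Snai1 and Snai2 encode zinc finger repressors that bind the sequence CACCTG, Twist1 a basic helix-loop-helix factor, and Prrx1 a homeobox factor of mesenchyme. In epithelial cells they lower cell adhesion genes such as Cdh1, and in glioma the mesenchymal state is known for several of them. Lum and Dcn encode lumican and decorin, matrix proteoglycans that bind collagen and are made mainly by fibroblasts.

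In GRCm38.p6 the RefSeq gene spans are chr19:34240336-34255585 for Acta2, chr9:45929628-45936058 for Tagln, chr2:156775408-156781657 for Myl9 and chr9:22099221-22109221 for Cnn1. They are chr2:167538195-167542814 for Snai1, chr16:14705852-14709395 for Snai2, chr12:33957671-33959831 for Twist1 and chr1:163245119-163315145 for Prrx1. Lum, at chr10:97565501-97572703, and Dcn, at chr10:97479500-97518163, lie near each other on chromosome 10.

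Promoters are shown for Acta2, which passed in 4 of 5 tumor groups, and Myl9, which passed in none, since both hold CArG motifs, and for Snai1, which holds the motif bound by its own family. Each is the 250 bases before the start used in the RefSeq promoter table, which can differ from the outer end of the gene, in GRCm38.p6, with CArG boxes and CACCTG in capitals. Acta2 lies on the minus strand at chr19:34255374-34255623, Myl9 on the plus strand at chr2:156775214-156775463, and Snai1 on the plus strand at chr2:167537945-167538194.
Acta2: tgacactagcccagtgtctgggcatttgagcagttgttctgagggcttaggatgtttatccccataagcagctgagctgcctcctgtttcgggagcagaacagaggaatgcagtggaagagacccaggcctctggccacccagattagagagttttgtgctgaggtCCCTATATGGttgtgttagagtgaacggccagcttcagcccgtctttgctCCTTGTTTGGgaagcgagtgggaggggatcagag
Myl9: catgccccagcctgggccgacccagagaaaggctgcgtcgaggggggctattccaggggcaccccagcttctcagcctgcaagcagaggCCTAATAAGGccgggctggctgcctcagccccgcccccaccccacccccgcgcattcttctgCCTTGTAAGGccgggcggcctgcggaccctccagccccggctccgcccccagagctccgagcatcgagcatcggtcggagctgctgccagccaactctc
Snai1: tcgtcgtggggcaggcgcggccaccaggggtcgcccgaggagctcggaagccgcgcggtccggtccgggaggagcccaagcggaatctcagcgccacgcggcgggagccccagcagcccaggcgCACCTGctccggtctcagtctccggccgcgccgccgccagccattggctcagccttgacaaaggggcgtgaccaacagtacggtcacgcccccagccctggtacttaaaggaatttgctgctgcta

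The RefSeq table held promoters for 6 of the 10 genes, among 32851 promoters. A CArG box is CC and GG on either side of a run of A and T bases. Myl9 held 1 strict box, CCTAATAAGG, beginning 161 bases before the start, and a second with 1 other base in the run, CCTTGTAAGG, at 99. Acta2 held 2 boxes with 1 other base each, CCCTATATGG at 84 and CCTTGTTTGG at 34. A strict box was found in 1.47% of all promoters of the same length, and a box with at most 1 other base in 8.59%. CACCTG stood 126 bases before the start of Snai1, and in 17.2% of all promoters on either strand. The promoters of Cnn1, Twist1 and Prrx1 held neither motif in this window. Tagln, Snai2, Lum and Dcn were not matched. These matches are letters in a window and not measured binding sites.

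Values are log2 signal, so a difference of 1 is a doubling, and array medians lay between 7.03 and 7.30. Normal tissue carried the neuron gene Snap25 at a mean of 13.97 in cortex and 13.86 in hippocampus. The first principal component, with 56.6% of the variance, separated the normal arrays, at 69.8 to 85.1, from all tumors, at -69.3 to 47.6. The second, with 14.2%, set 4 tumor arrays apart. Tumor 1 of the GFAP cortex group had a value of -67.0, and numbers 5, 6 and 7 of the GFAP hippocampus group -74.7, -55.9 and -61.8, where the other arrays lay between -13.2 and 33.0. GFAP cortex tumors 1 and 4 carried skeletal muscle markers: all 8 of 8 were above the highest of the 8 normal arrays in both, against 0 of 8 in tumors 2 and 3. Acta1, skeletal muscle actin, read 9.82, 7.66, 7.65 and 9.18 in GFAP cortex tumors 1 to 4, and 7.74 to 8.16 in normal arrays. Member calls that changed without the 4 arrays set apart are given in the text or in the closing section. Counts of other lists are given without these arrays in some cases.

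**Figure D1:**
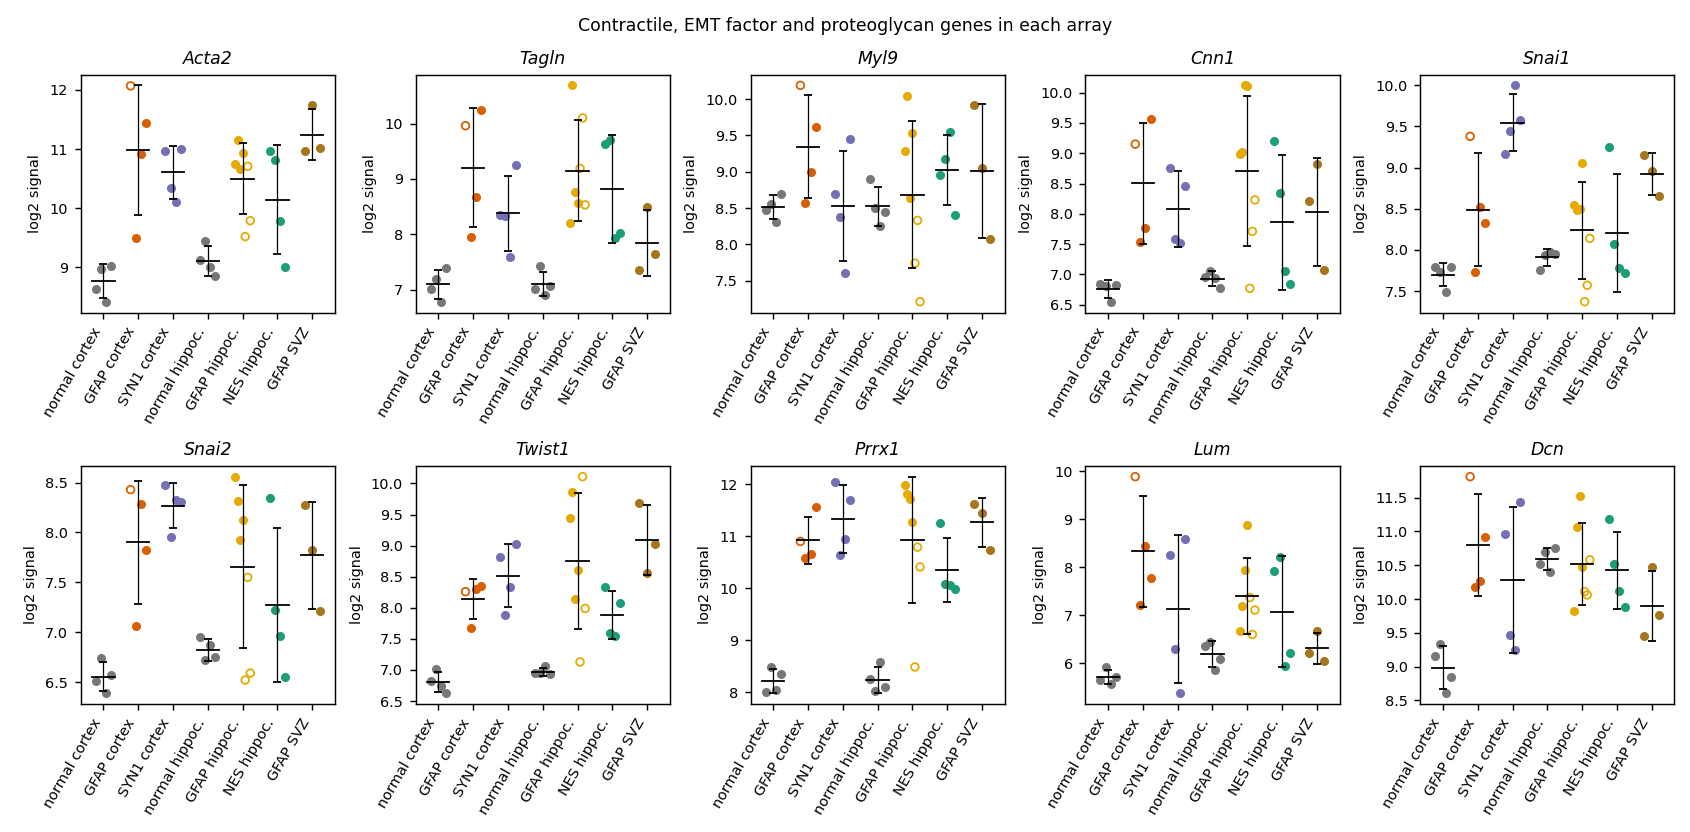
Log2 signal of each gene in each of the 30 arrays, by group; lines are means and bars are SD. Open symbols mark GFAP cortex tumor 1 and GFAP hippocampus tumors 5 to 7. Prrx1 lay at 8.01 to 8.59 in the 8 normal arrays and above that in 21 of 22 tumors, while Myl9 and Dcn overlapped the normal arrays in every hippocampus comparison.

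Prrx1 was raised in every kind of tumor, Acta2, Tagln, Cnn1, Snai1, Snai2, Twist1, Lum and Dcn in some, and Myl9 in none. In GFAP cortex tumors 8 of the 10 genes were higher than in normal cortex by limma at an adjusted p under 0.05, where 27.8% of all genes changed and 9.00% were higher. SYN1 cortex tumors had 6 higher, against a background of 38.7% changed and 18.2% higher. GFAP hippocampus tumors had 5 higher, against 41.4% changed and 16.1% higher. GFAP SVZ tumors had 5 higher, against 37.6% changed and 16.2% higher. NES hippocampus tumors had 2 higher, against 8.56% changed and 5.69% higher. No member was lower in any of these 5 comparisons. The share of all genes with every tumor array above every array of the normal group was 13.3%, 23.1%, 8.43%, 19.1% and 13.6% for GFAP cortex, SYN1 cortex, GFAP hippocampus, SVZ and NES tumors. The median difference over the 10 genes was 1.78 in GFAP cortex, 1.57 in SYN1 cortex, 1.31 in GFAP hippocampus, 0.90 in NES hippocampus and 1.10 in GFAP SVZ tumors, where the median over all genes lay between -0.10 and -0.003. In bulk tissue, a change in the number of cells of a type and a change in RNA per cell cannot be told apart.

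The GFAP cortex count changed without tumors 1 and 4, the arrays with skeletal muscle markers. Without both, 1 of 10 genes passed, Prrx1, at 2.39 with a limma adjusted p of 0.0177, while the count over all genes went from 5536 to 1742. The other 9 differences kept their sign: Acta2 was 1.45 (adjusted p = 0.0584), Lum 2.12 (0.0632), Dcn 1.23 (0.113), Snai2 1.13 (0.142), Twist1 1.18 (0.169), Tagln 1.22 (0.185) and Cnn1 0.90 (0.423). That left 2 tumors in the group, so these arrays and the smaller group cannot be told apart as the source of the lost calls. Without tumor 1 alone, Cnn1 was lost (1.53, adjusted p = 0.0923) and the other 7 still passed. Tumors 2 and 3, with 0 of 8 muscle markers raised, had 7 and 9 of the 10 genes above every normal array, and tumors 1 and 4 had 10 of 10. The share of all genes above every normal array was not taken for single tumors, so these counts have no background.

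Acta2 was higher in 4 of the 5 tumor groups. It read 8.63, 8.97, 8.42 and 9.03 in normal cortex, 12.07, 9.5, 10.91 and 11.45 in GFAP cortex tumors, and 10.97, 10.34, 10.11 and 11 in SYN1 cortex tumors. Normal hippocampus read 9.13, 9.44, 9.01 and 8.85, and the 7 GFAP hippocampus tumors ran from 9.52 through a median of 10.71 to 11.15. NES tumors read 10.97, 10.81, 9.79 and 9.00, and SVZ tumors 10.97, 11.74 and 11.02. Every tumor array but NES tumor 4 was above every normal array. The differences were 2.22 ± 0.44 (SE, limma adjusted p = 0.000631) in GFAP cortex, 1.84 ± 0.44 (0.00128) in SYN1 cortex, 1.40 ± 0.39 (0.00534) in GFAP hippocampus and 2.31 ± 0.42 (9.14e-05) in SVZ tumors. In NES tumors the difference was 1.03 ± 0.44 with an adjusted p of 0.156, and 1.41 with an adjusted p of 0.0406 without NES tumor 4. Actin genes are close in sequence. In GFAP cortex tumors 2 and 3 Acta1 lay below every normal array while Acta2 lay above every one. Cross-hybridization was not tested.

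Tagln had another order of groups, with GFAP cortex tumors at the top and SVZ tumors lowest among tumors. Normal cortex read 6.78 to 7.39 and normal hippocampus 6.91 to 7.42. GFAP cortex tumors read 9.96, 7.95, 8.67 and 10.24, the 7 GFAP hippocampus tumors ran from 8.21 through 8.76 to 10.69, and NES tumors read 9.63, 9.70, 7.93 and 8.02. The NES tumors thus fell into a high and a low pair, both above normal hippocampus. SYN1 cortex tumors read 8.34, 8.33, 7.58 and 9.25, and SVZ tumors 7.35, 8.50 and 7.65. Tagln was higher in the GFAP cortex group (2.11 ± 0.52, limma adjusted p = 0.00351), GFAP hippocampus (2.05 ± 0.46, 0.000899) and NES tumors (1.72 ± 0.52, 0.0363). In SYN1 cortex tumors, none of which overlapped normal cortex, it was 1.28 ± 0.52 (0.0518), and 1.55 without SYN1 tumor 3 (0.0303). In SVZ tumors it was 0.74 ± 0.50 (0.277). The NES call was lost on leaving out NES tumor 1 (adjusted p = 0.179), NES tumor 2 (0.137) or any of the 4 normal hippocampus arrays (0.0571 to 0.0897).

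Cnn1 was higher in GFAP hippocampus tumors, by 1.77 ± 0.53 (limma adjusted p = 0.00928), and in GFAP cortex tumors, by 1.74 ± 0.60 (0.0304). The 7 GFAP hippocampus tumors ran from 6.77 through 8.98 to 10.12, where tumor 5 lay at the bottom of the normal hippocampus range of 6.77 to 7.06 and the other 6 above it. GFAP cortex tumors read 9.15, 7.54, 7.77 and 9.56, highest in the arrays with muscle markers, against 6.55 to 6.85 in normal cortex. The GFAP cortex call was lost on leaving out tumor 1 (0.0923), tumor 4 (0.117) or any single normal cortex array (0.0536 to 0.0691). Differences of 1.32 in SYN1 cortex, 0.93 in NES hippocampus and 1.19 in SVZ tumors did not pass (adjusted p = 0.0857, 0.388 and 0.11).

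Myl9, whose product is the light chain that myosin light chain kinase phosphorylates, did not pass in any of the 5 comparisons with normal tissue. The differences ran from 0.02 ± 0.48 in SYN1 cortex tumors to 0.83 ± 0.48 in the GFAP cortex group, with limma adjusted p-values from 0.223 to 0.985. Its normal arrays lay between 8.25 and 8.90, and 12 of 22 tumors were above that range. SYN1 cortex tumors read 8.69, 8.37, 7.61 and 9.45 and GFAP hippocampus tumors ran from 7.21 through 8.64 to 10.05, so single tumors lay both above and below normal tissue. The promoters of Myl9 and Acta2 both held CArG boxes, while only Acta2 passed in these comparisons.

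Prrx1 was the only one of the 10 genes that passed in all 5 comparisons with normal tissue. It read 8.01, 8.49, 8.05 and 8.35 in normal cortex, 10.90, 10.58, 10.65 and 11.57 in GFAP cortex tumors, and 12.05, 10.64, 10.95 and 11.70 in SYN1 cortex tumors. Normal hippocampus read 8.26, 8.02, 8.59 and 8.10, the 7 GFAP hippocampus tumors ran from 8.49 through 11.28 to 11.98, and NES tumors read 11.26, 10.08, 10.06 and 9.99. SVZ tumors read 11.62, 11.45 and 10.73. GFAP hippocampus tumor 5 was the only tumor array inside the normal range. The differences were 2.70 ± 0.50 (SE, limma adjusted p = 0.000356) in GFAP cortex, 3.11 ± 0.50 (2.03e-05) in SYN1 cortex, 2.68 ± 0.44 (3.34e-05) in GFAP hippocampus, 2.10 ± 0.50 (0.00769) in NES and 3.03 ± 0.47 (1.98e-05) in SVZ tumors. On the linear scale these are folds of 6.5, 8.62, 6.43, 4.29 and 8.17. The NES call was lost without NES tumor 1 (1.80, adjusted p = 0.0536), which left no member called in NES tumors.

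Twist1 was above the highest normal array, 7.07, in all 22 tumors, as were 3.55% of all genes. GFAP cortex tumors read 8.26, 7.67, 8.31 and 8.35, SYN1 cortex tumors 8.81, 7.89, 8.34 and 9.03, and SVZ tumors 9.69, 8.56 and 9.03. The 7 GFAP hippocampus tumors had the widest spread, from 7.13 through 8.61 to 10.11, and NES tumors read 8.33, 7.59, 7.54 and 8.07. The differences were 2.20 ± 0.41 (limma adjusted p = 0.000122) in SVZ, 1.79 ± 0.38 (0.000547) in GFAP hippocampus, 1.71 ± 0.43 (0.00208) in SYN1 cortex and 1.34 ± 0.43 (0.0197) in GFAP cortex tumors. In NES tumors the difference of 0.91 ± 0.43 did not pass (0.212), although no NES tumor overlapped normal hippocampus.

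Snai1 was highest in SYN1 cortex tumors, which read 9.17, 9.44, 10 and 9.58, while normal cortex read 7.79, 7.73, 7.49 and 7.79. GFAP cortex tumors read 9.38, 7.73, 8.52 and 8.33, SVZ tumors 9.15, 8.96 and 8.65, and NES tumors 9.25, 8.07, 7.78 and 7.72. The 7 GFAP hippocampus tumors ran from 7.37 through 8.48 to 9.06, around the normal hippocampus range of 7.76 to 7.98. All 4 SYN1 and all 3 SVZ tumors were above every normal array, while the other groups overlapped normal tissue. Snai1 was higher in SYN1 cortex tumors by 1.85 ± 0.33 (limma adjusted p = 7.9e-05) and in SVZ tumors by 1.12 ± 0.32 (0.00645). The differences of 0.79 in GFAP cortex, 0.33 in GFAP hippocampus and 0.30 in NES tumors did not pass (0.0803, 0.391 and 0.652). Without GFAP cortex tumor 2 the first was 1.04 and passed (0.0213).

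Snai2 was higher in SYN1 cortex tumors (1.72 ± 0.39, limma adjusted p = 0.000824), GFAP cortex tumors (1.35 ± 0.39, 0.0105) and SVZ tumors (1.08 ± 0.37, 0.0223). The 4 SYN1 tumors lay close together, at 8.48, 7.95, 8.33 and 8.31, above the normal cortex range of 6.39 to 6.74. In GFAP hippocampus tumors the difference was 0.83 ± 0.34 (0.0539), with tumors 5 and 7 at 6.52 and 6.59, below the lowest normal hippocampus array at 6.72. Without either of those it passed, at 1.02 (0.0125) and 1.01 (0.0176). The SVZ call was lost without SVZ tumor 1 (0.158) or SVZ tumor 2 (0.0742). In NES tumors the difference was 0.45 (0.541).

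Dcn was higher in cortex tumors than in normal cortex, while hippocampus tumors stayed around a higher normal level. It read 9.16, 9.33, 8.61 and 8.84 in normal cortex and 10.52, 10.69, 10.40 and 10.76 in normal hippocampus. GFAP cortex tumors read 11.81, 10.18, 10.26 and 10.92, and SYN1 cortex tumors 10.96, 9.47, 9.25 and 11.43. The 7 GFAP hippocampus tumors ran from 9.82 through 10.47 to 11.52, NES tumors read 11.18, 10.52, 10.12 and 9.88, and SVZ tumors 9.46, 10.47 and 9.76. The cortex tumors thus lay at or above the level of normal cortex, and the hippocampus tumors on both sides of normal hippocampus. Dcn was higher in GFAP cortex tumors by 1.81 ± 0.43 (limma adjusted p = 0.00262) and in SYN1 cortex tumors by 1.29 ± 0.43 (0.0166). The SYN1 call was lost without SYN1 tumor 1 (0.0702), SYN1 tumor 4 (0.104) or normal cortex array 3 (0.0529). In the hippocampus the differences were -0.08 ± 0.38 for GFAP tumors and -0.17 ± 0.43 for NES tumors (0.89 and 0.859). SVZ tumors had a Dcn mean of 9.895, between normal cortex at 8.986 and normal hippocampus at 10.593. Their difference of 0.11 from the mean of both thus depends on the normal tissue used. The test of the difference itself, GFAP hippocampus minus GFAP cortex, gave -1.88 ± 0.57 and did not pass (0.133), where 0.838% of all genes did and Dcn was the 1 member with an unadjusted p under 0.05.

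Normal hippocampus exceeded normal cortex in Dcn by 1.61 ± 0.43, with ranges apart and a limma adjusted p of 0.0586. The value passed with each array centred on its median (0.0384), with quantile normalization (0.0481) and without GFAP cortex tumor 1, which enters the pooled spread (0.0339). None of the 10 genes passed between the normal regions in limma, where 1.29% of all genes did, and only Dcn had an unadjusted p under 0.05. The other 9 differences ran from 0.006 to 0.47. Between the normal regions, 6.30% of all genes had every hippocampus array above every cortex array.

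Lum passed only in GFAP cortex tumors. These read 9.89, 7.21, 8.45 and 7.77, all above the normal cortex range of 5.56 to 5.92, and differed by 2.62 ± 0.61 (limma adjusted p = 0.00255). SYN1 cortex tumors read 8.25, 6.30, 5.38 and 8.60, so that tumor 3 was below every normal array and tumors 1 and 4 were well above. Their difference of 1.42 ± 0.61 did not pass (0.0691), and passed without SYN1 tumor 3 (2.01, 0.0101) or SYN1 tumor 2 (1.70, 0.0442). In GFAP hippocampus tumors every array, from 6.60 to 8.89, was above the highest normal hippocampus array, 6.45, with a difference of 1.22 ± 0.54 (0.075). NES tumors had 0.89 (0.423) and SVZ tumors 0.36 (0.706).

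**Figure D2:**
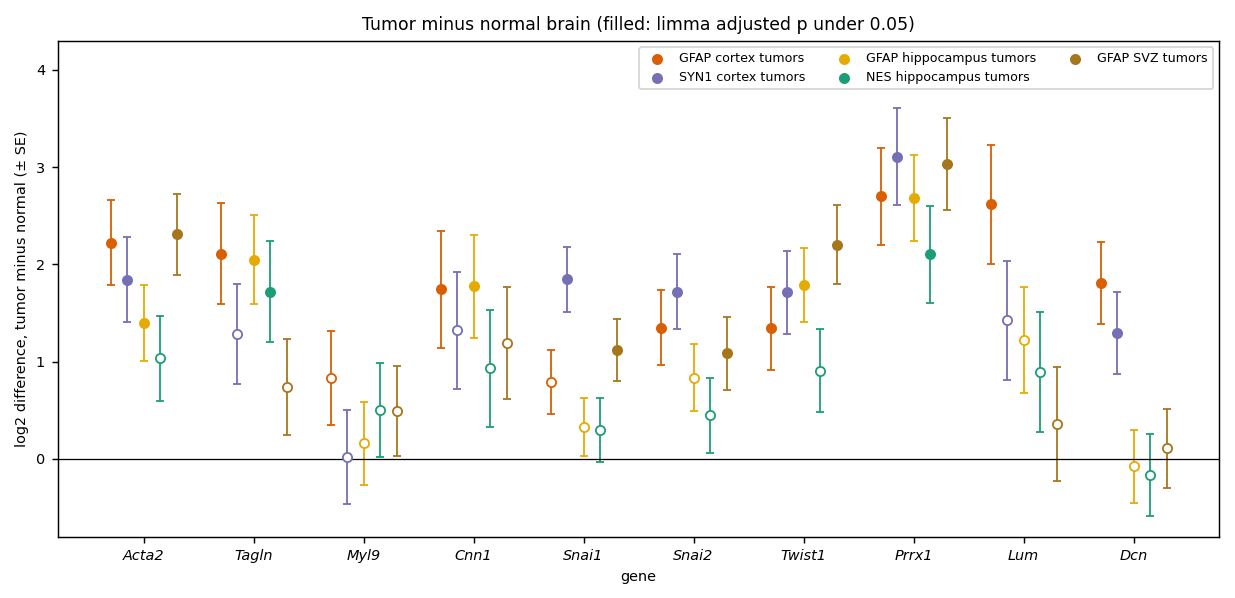
Difference in mean log2 signal between tumors and normal tissue for each gene and tumor group; bars are SE of the limma fit and filled points have an adjusted p under 0.05. Prrx1 is filled in all 5 groups, from 2.10 to 3.11, and Myl9 in none. Dcn is filled in both cortex groups, at 1.81 and 1.29, with values near 0 in the other 3. For SVZ tumors the Dcn value is against the mean of 8.99 in normal cortex and 10.59 in normal hippocampus.

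Between tumors, no member passed in limma in any comparison as designed. At an unadjusted p under 0.05 there was 1 between SYN1 and GFAP cortex tumors (Snai1), 1 between NES and GFAP hippocampus tumors (Twist1), 0 between GFAP tumors of hippocampus and cortex, 2 between SVZ and cortex (Tagln and Lum) and 2 between SVZ and hippocampus (Tagln and Snai1). SYN1 and GFAP cortex tumors shared the same normal tissue and were compared directly, with 0.176% of all genes called. Snai1 was 1.06 ± 0.33 higher in SYN1 tumors with a limma adjusted p of 0.168, and 1.35 higher with 0.0249 without GFAP cortex tumor 1. Without that tumor the calls over all genes went from 35 to 1132. With all arrays, Lum differed by -1.19 (0.364) and Tagln by -0.83 (0.459) in SYN1 tumors. NES against GFAP hippocampus tumors had 8.21% of all genes called and 2.09% lower. The largest member difference there was Twist1, at -0.88 (0.133). Without GFAP hippocampus tumor 5, NES tumors were lower in Twist1 (-1.15, 0.0238) and Prrx1 (-0.99, 0.0374). The count over all genes in that setting was not taken.

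Among GFAP tumors of different regions, 2.68% of all genes were called between hippocampus and cortex, 0.00502% between SVZ and cortex and 0.316% between SVZ and hippocampus. Lum read lower in every SVZ array than in every GFAP cortex array, 6.05 to 6.67 against 7.21 to 9.89, with a difference of -2.02 ± 0.66 and a limma adjusted p of 0.342. Ranges apart in that direction were found for 1.76% of all genes. Twist1 read higher in all 3 SVZ arrays than in all 4 GFAP cortex arrays, with a difference of 0.95 ± 0.46 (0.474), and 6.74% of all genes had ranges apart in that direction. For Tagln, SVZ minus GFAP cortex tumors was -1.37 (0.433) and SVZ minus GFAP hippocampus tumors -1.32 (0.221).

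GFAP hippocampus tumors 5 to 7 were below tumors 1 to 4 in 5 of the 10 genes with no overlap: Myl9, Cnn1, Snai1, Snai2 and Prrx1. Of all genes, 28.9% had the same order. Prrx1 read 11.28 to 11.98 in tumors 1 to 4 and 8.49 to 10.79 in tumors 5 to 7. Cnn1 read 8.98 to 10.12 against 6.77 to 8.23, and Snai2 7.92 to 8.56 against 6.52 to 7.55. Tagln, Twist1, Lum, Dcn and Acta2 overlapped. Tumors 5 to 7 were also low in pericyte markers, with a mean difference of -0.37, -0.36 and -0.12 from the normal arrays where tumors 1 to 4 had 0.17 to 0.64. Their endothelial markers were at -0.05, 0.48 and 0.29 against 1.00 to 1.27. The arrays of tumors 5 to 7 also differed in signal distribution. Their medians were 7.05, 7.07 and 7.03, against 7.10 to 7.28 in tumors 1 to 4. Their interquartile ranges were 2.26, 2.54 and 2.38, against 2.57 to 3.07. The part of these cells and of these arrays in the result was not tested.

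With tumors 1 to 4 only, Snai1 (0.74, limma adjusted p = 0.0397) and Snai2 (1.41, 0.000509) also passed against normal hippocampus. With GFAP cortex tumor 1 left out as well, Lum did too (1.5, 0.0357), for 8 of 10. In that fit the calls over all 19938 genes went from 8245 to 10443, and those higher from 3213 to 5187. With GFAP hippocampus tumors 1 to 4 only, calls between promoters appeared as well. NES tumors were then lower in Cnn1 (-1.70, 0.0318), Snai2 (-0.96, 0.0418), Twist1 (-1.14, 0.0244) and Prrx1 (-1.36, 0.0125). Over all genes 2174 were called there and 1405 were lower, against 1637 and 417 with all arrays.

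Single tumors varied within each group. GFAP cortex tumors 1 and 4, GFAP hippocampus tumor 2, NES tumor 1 and SYN1 tumor 4 had all 10 genes above the highest normal array, while NES tumor 4 had 3 and GFAP hippocampus tumor 5 had 4. The share of all genes was not taken for single arrays. Acta2, Tagln and Prrx1 were above the highest normal array in 21 of 22 tumors, which 6.81% of all genes matched or exceeded, Cnn1 and Snai2 in 19 (11.6%), Snai1 in 17 (15.9%), Lum in 16 (18.1%), Myl9 in 12 (25.2%) and Dcn in 7 (share not taken). With group means removed, members moved together over the 22 tumor arrays in some pairs and not in others. Pearson's r was 0.80 for Cnn1 and Prrx1, 0.78 for Snai1 and Snai2, 0.78 for Snai2 and Prrx1, 0.78 for Lum and Dcn, and 0.71 for Acta2 and Tagln. It was 0.03 for Twist1 and Lum and 0.17 for Tagln and Snai1. Without the 4 arrays that stand apart, over 18 arrays, the first 5 were 0.71, 0.77, 0.69, 0.73 and 0.80. These are descriptions: both values of a pair come from the same array, with its RNA quality and tumor content.

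Over all genes, by the same measure over 22 arrays, the gene most like Acta2 was Pecam1, an adhesion molecule of endothelial cells (r = 0.87), and that most like Lum was Col15a1, a collagen of basement membranes (0.87). Snai1 was nearest to Smtn, which encodes smoothelin of contractile smooth muscle (0.95), followed by Ier3 (0.91). Prrx1 was nearest to Mcm2, a subunit of the replicative helicase (0.96), and Dcn to Prg4, a lubricating proteoglycan (0.89). For Cnn1 they were Heatr5a (0.92), Mob3a (0.89) and Tgfbi (0.89), a matrix protein induced by TGF-beta. Snai2 was nearest to Plekhg2 (0.93), Twist1 to Nfkbie (0.81), Tagln to Cd300lb (0.81) and Myl9 to Lrig3 (0.86).

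Many, but not all, other genes of the contractile apparatus rose with Acta2. Of 18 genes listed, 10 rose and 1 fell in the GFAP cortex group, 11 and 0 in SYN1 cortex, 11 and 1 in GFAP hippocampus, 6 and 0 in NES and 11 and 0 in SVZ tumors, with list medians of 1.45, 1.84, 1.25, 1.08 and 1.88. In the same order, 9.00%, 18.2%, 16.1%, 5.69% and 16.2% of all genes were higher. Cnn2, a calponin of non-muscle cells, rose by 3.34, 4.16, 3.16, 2.25 and 4.09 in that order of groups. Flna, a filament cross-linker, rose by 2.81, 3.81, 3.06, 1.65 and 3.36, and Tagln2 by 2.70, 3.35, 2.16, 2.24 and 3.12. Cald1, Tpm1 and Cnn3 passed in all 5 groups as well. Smtn, Tpm2, Tpm4 and Vcl rose in all groups but NES, Smtn by 1.53 to 2.56 and Tpm2 by 1.83 to 2.31. Myh11, the smooth muscle myosin heavy chain, did not rise in any group: its differences ran from -0.46 to -0.02, and it fell in GFAP hippocampus tumors (-0.46, limma adjusted p = 0.0143). Lmod1, Mylk, Des, Synpo2 and Actg2 passed in no group with all arrays. Csrp1 fell by 0.53 in GFAP cortex tumors (0.014). Without GFAP cortex tumors 1 and 4 the GFAP cortex count was 5 higher and 0 lower. Without the 4 arrays that stand apart the GFAP hippocampus count was 12 and 1, with Actg2 called (0.36, 0.0178), and Myh11 was lower in GFAP cortex tumors too (-0.30, 0.0321). Between NES and GFAP hippocampus tumors, 1 of the 18 was lower with all arrays and 10 without those 4.

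Among SRF and its cofactors, none of 4 genes rose. Mrtfb, a coactivator of SRF that responds to actin, fell in GFAP cortex (-1.62 ± 0.42, limma adjusted p = 0.00488), SYN1 cortex (-2.09, 0.000233), GFAP hippocampus (-2.34, 2.16e-05) and SVZ tumors (-2.22, 8.44e-05), and was -0.75 in NES tumors (0.305). Mrtfa fell in GFAP hippocampus tumors (-0.81, 0.00226), by less without the 4 arrays that stand apart (-0.41, 0.0257). The mean of the 4 genes lay at -1.57 to -1.23 in GFAP hippocampus tumors 5 to 7 and -0.76 to -0.33 in tumors 1 to 4. Srf itself ran from -0.50 to 0.04 and Myocd from -0.09 to 0.24, with no call. Mrtfb read at a mean of 12.24 in normal cortex. Neuron markers were lower in the same 4 tumor groups, and a link between the 2 was not tested. Without GFAP cortex tumors 1 and 4, no gene of this list was called in GFAP cortex tumors (Mrtfb -1.04, 0.166), and without the 4 arrays Srf was (-0.42, 0.0484).

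Other EMT transcription factors were called in some tumor groups and not in others. Of all genes, 9.00%, 18.2%, 16.1%, 5.69% and 16.2% were higher in GFAP cortex, SYN1 cortex, GFAP hippocampus, NES and SVZ tumors. In GFAP hippocampus and SVZ tumors 41.4% and 37.6% of all genes changed. Of 8 listed, 0 were higher in GFAP cortex and NES tumors, 2 in SYN1 cortex, 2 in GFAP hippocampus and 3 in SVZ tumors, and 2 and 1 were lower in GFAP hippocampus and SVZ tumors. Prrx2, the paralog of Prrx1, rose in SYN1 cortex (0.66, limma adjusted p = 0.0297), GFAP hippocampus (0.66, 0.0152) and SVZ tumors (0.86, 0.00375). Foxc1 rose in the same 3 groups by 0.62, 0.95 and 0.88. Twist2 rose in SVZ tumors (2.34, 0.00993), with 0.99 to 1.48 and no call elsewhere. Zeb2, a zinc finger EMT factor also present in glia, fell in GFAP hippocampus (-1.30, 0.000397) and SVZ tumors (-0.85, 0.0204). Zeb1 was called in no group with all arrays. GFAP hippocampus tumors 5 to 7 lay below normal tissue in the mean of this list, at -0.44 to -0.20, and tumors 1 to 4 above, at 0.32 to 0.55. Without the 4 arrays that stand apart 4 of the 8 were higher and 1 lower in GFAP hippocampus tumors: Twist2 (2.12, 0.00682) and Zeb1 (0.44, 0.0469) were added, Gsc was lost (-0.21, 0.0521), and Zeb2 was -0.85 (0.000416).

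Genes for adhesion were also read, since EMT factors are known to act on them. Of 8 listed, 3, 4, 3, 3 and 4 were higher and 0, 0, 2, 0 and 1 lower in GFAP cortex, SYN1 cortex, GFAP hippocampus, NES and SVZ tumors. In the same order, 9.00%, 18.2%, 16.1%, 5.69% and 16.2% of all genes were higher. The mesenchymal genes Fn1, Itga5 and Vim rose in all 5 groups: fibronectin Fn1 by 1.91 to 2.72, the fibronectin receptor subunit Itga5 by 2.26 to 4.35 and vimentin by 1.53 to 2.14. Cdh1, or E-cadherin, was not lower in any group and was higher in SYN1 cortex tumors (0.70, limma adjusted p = 0.0406), the group with the highest Snai1. Cdh2, or N-cadherin, was called in SVZ tumors (0.86, 0.0343), and the mesenchymal cadherin Cdh11 fell in GFAP hippocampus (-1.07, 0.0118) and SVZ tumors (-1.38, 0.00314). Cdh11 was 1 of the 2 genes lower in GFAP hippocampus tumors, and the other is not given here. Cdh1 alone does not stand for the epithelial genes, since Epcam and Ocln were also listed. In GFAP hippocampus tumors Cdh11 did not pass without the 4 arrays that stand apart (-0.63, 0.126), while Cdh2 did (0.93, 4.13e-05).

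Among the other small leucine-rich proteoglycans more calls were lower than higher, as was the case over all genes in every group but NES tumors. Of all 19938 genes, 3742, 4096, 5032, 571 and 4268 were lower in GFAP cortex, SYN1 cortex, GFAP hippocampus, NES and SVZ tumors. Of 12 listed, 1 was higher and 0 lower in the GFAP cortex group, 1 and 5 in SYN1 cortex, 0 and 4 in GFAP hippocampus, 0 and 0 in NES and 0 and 1 in SVZ tumors. Bgn, biglycan, rose in GFAP cortex (2.26, limma adjusted p = 0.00335) and SYN1 cortex tumors (3.33, 3.03e-05), the groups in which Dcn rose too. Without GFAP cortex tumors 1 and 4 no gene of this list passed in GFAP cortex tumors (Bgn 1.41, 0.151). Bgn also rose in GFAP hippocampus tumors when the 4 arrays that stand apart were left out (1.39, 0.00637). Ogn, osteoglycin, fell in SYN1 cortex (-1.58, 0.00159), GFAP hippocampus (-1.30, 0.0034) and SVZ tumors (-1.22, 0.00951). Fmod fell in SYN1 cortex tumors (-1.5, 0.000458), and Prelp in SYN1 cortex (-0.84, 0.0331) and GFAP hippocampus tumors (-0.96, 0.00701).

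**Figure D3:**
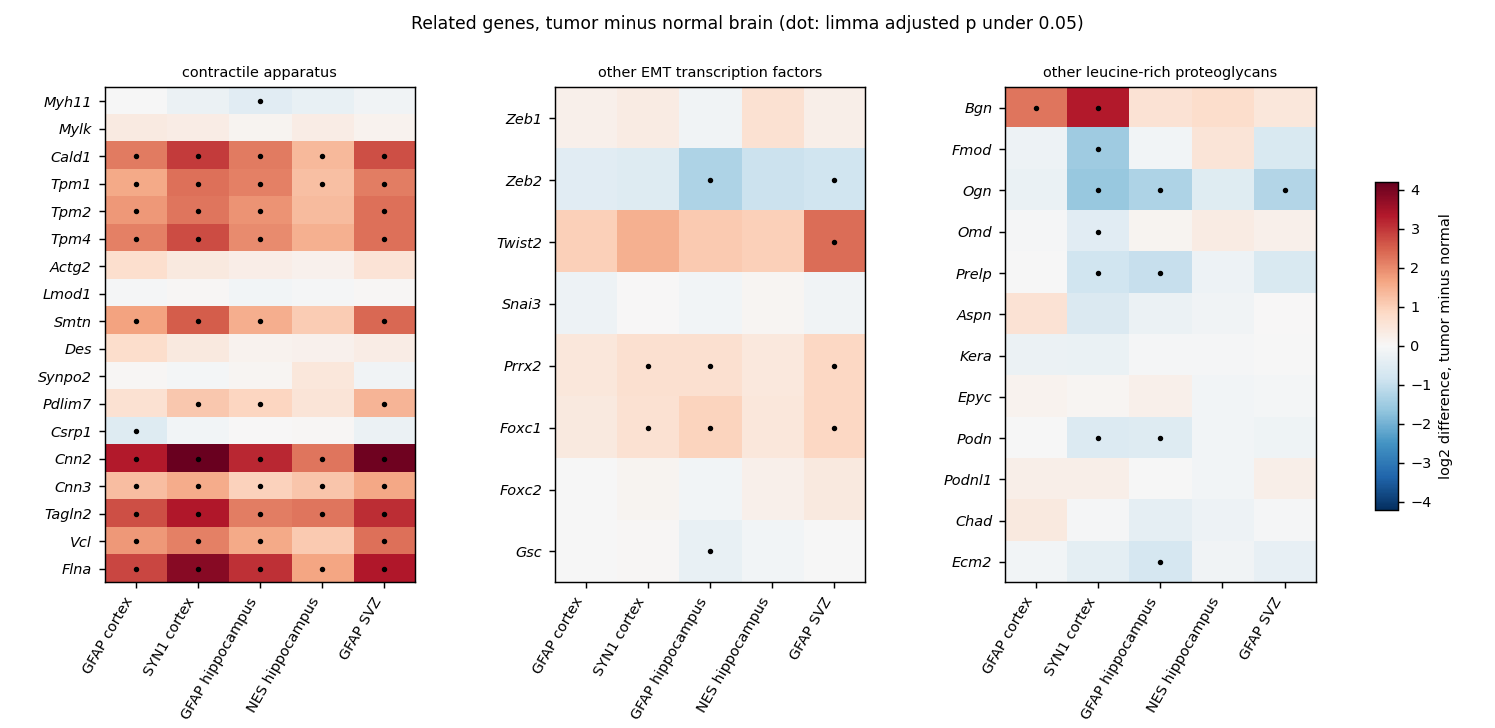
Difference in mean log2 signal between tumors and normal tissue for 3 lists of related genes, by tumor group; color gives the difference and a dot an adjusted p under 0.05 in limma. Cnn2, Flna and Tagln2 are dotted in every group, Myh11 is below 0 throughout, and Bgn is dotted in the cortex tumors only.

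TGF-beta is a known inducer of Acta2, Snai1 and Snai2. Of 11 measured genes of its pathway, 3, 5, 7, 4 and 6 were higher in GFAP cortex, SYN1 cortex, GFAP hippocampus, NES and SVZ tumors, and 0, 0, 1, 1 and 0 lower. In the same order, 9.00%, 18.2%, 16.1%, 5.69% and 16.2% of all genes were higher. The ligand Tgfb1 rose in all 5 groups (1.47 to 2.62), as did the receptor Tgfbr2 (1.16 to 1.68) and the target Tgfbi (2.58 to 3.76). Ccn2, a matricellular target, rose in GFAP hippocampus (1.54, limma adjusted p = 0.00723) and SVZ tumors (1.59, 0.00996). The ligand Tgfb2 fell in GFAP hippocampus (-1.82, 3.14e-05) and NES tumors (-1.35, 0.011), and was 0.57 in GFAP cortex tumors (0.231). It was also 1.80 higher in normal hippocampus than in normal cortex (0.00272). For Tgfb2 the test of the difference between regions passed (-2.39 ± 0.45, 0.00515), as it did for no member. Without GFAP cortex tumors 1 and 4 Tgfb1 did not pass in GFAP cortex tumors (1.17, 0.203), and without the 4 arrays that stand apart Tgfb3 rose in GFAP hippocampus tumors (1.32, 0.000258) and Tgfb2 in GFAP cortex tumors (0.86, 0.00493).

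Markers of the cells in which contractile and matrix genes are usually expressed were read beside them. Of 11 pericyte markers, 1, 3, 1, 0 and 1 were higher in GFAP cortex, SYN1 cortex, GFAP hippocampus, NES and SVZ tumors, against 9.00%, 18.2%, 16.1%, 5.69% and 16.2% of all genes, and 1, 1, 1, 0 and 1 were lower. Without the 4 arrays that stand apart 5 were higher in GFAP hippocampus tumors, Pdgfrb among them (0.64, limma adjusted p = 0.0487), and without GFAP cortex tumors 1 and 4 none passed in GFAP cortex tumors. Anpep rose in 4 groups by 1.57 to 2.92 and Vtn fell in the same 4 by 1.22 to 2.05, while Pdgfrb and Rgs5 passed in none with all arrays. The mean difference of the pericyte list from the normal arrays ran from 0.10 to 0.52 in GFAP cortex tumors, 0.38 to 0.70 in SYN1 cortex, -0.37 to 0.64 in GFAP hippocampus, 0.07 to 0.47 in NES and -0.14 to 0.69 in SVZ tumors.

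Of 15 fibroblast and meningeal markers, 5, 3, 5, 1 and 2 were higher and 4, 5, 2, 0 and 2 lower, in the same order of groups. Of all 19938 genes, 9.00%, 18.2%, 16.1%, 5.69% and 16.2% were higher, and 3742, 4096, 5032, 571 and 4268 were lower. Col1a2 rose in GFAP cortex (2.11, limma adjusted p = 0.00566), SYN1 cortex (1.64, 0.0194) and GFAP hippocampus tumors (1.94, 0.00266), and the meningeal transporter Slc6a13 fell by 0.96 to 1.81 in 4 groups. The list score was 1.41 in GFAP cortex tumor 1, where Lum and Dcn had their highest values of all 30 arrays, and 0.16 to 0.58 in GFAP cortex tumors 2 to 4. Of 10 endothelial markers, 2, 7, 6, 1 and 8 were higher and none lower, and Vwf rose in all 5 groups by 1.12 to 1.43. Without GFAP cortex tumors 1 and 4, 0 fibroblast markers were higher in GFAP cortex tumors (Col1a2 1.15, 0.165) and 1 endothelial marker was. With the 4 arrays that stand apart left out, 9 endothelial markers were higher in GFAP hippocampus and 5 in GFAP cortex tumors. The part of these cells in the member results was not tested.

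Of 8 skeletal muscle markers, Myh4 passed in the GFAP cortex group (0.58, limma adjusted p = 0.0362) and none passed in another group. Their score ran from -0.16 to 1.44 in GFAP cortex tumors, and from -0.22 to 0.23 in the other 4 tumor groups. Of 5 neuron markers, 5, 4, 5, 0 and 5 were lower, and of 3 oligodendrocyte markers measured 3, 3, 2, 0 and 3. Without GFAP cortex tumors 1 and 4, no marker of either list was lower in GFAP cortex tumors. NES tumors thus had the fewest members higher and no neuron or oligodendrocyte marker lower. The neuron score was -4.83 in GFAP cortex tumor 1 and ran from -1.67 to -0.90 in tumors 2 to 4, and from -1.77 to -0.46 in NES tumors. Whether the share of tumor tissue in a sample moved the members was not tested.

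**Figure D4:**
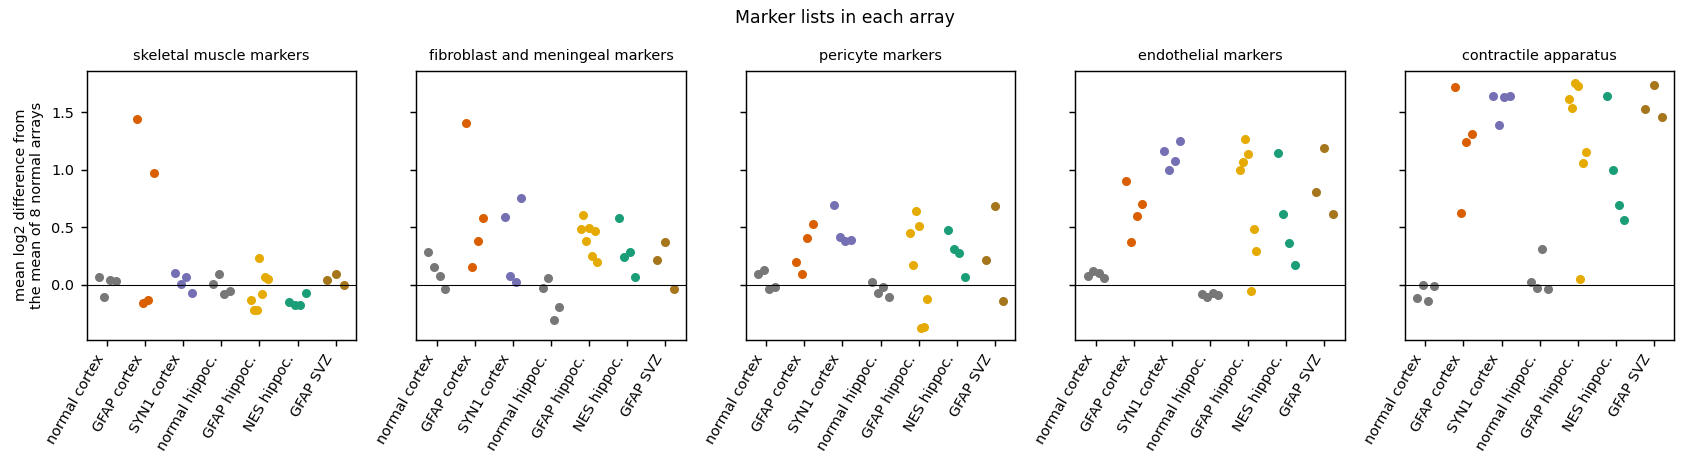
Mean log2 difference of each marker list from the mean of the 8 normal arrays, for each of the 30 arrays by group; each point is 1 array. GFAP cortex tumors 1 and 4 stand out for skeletal muscle markers at 1.44 and 0.97, and GFAP hippocampus tumors 5 to 7 lie low for pericyte and endothelial markers.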

How the data were processed

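RNA extracted with Trizol and labelled with the Ambion WT kit, per the labels' protocols, was hybridised to 30 arrays. The log2 signal deposited by the authors was used as it stands. Affymetrix Power Tools, MAS5 and RMA appear as tools, per the submitters' processing notes; normalization between arrays, versions and genome build are not given in the sources used here. Of 35556 probe sets, 21789 named 1 gene symbol, 1621 several and 12146 none; 21698 matched RefSeq GRCm38.p6. Each gene kept the probe set with the highest mean; every member had only 1. Means of the 7 groups were fitted over 30 arrays with limma 3.58.1 (R 4.3.3), with Benjamini-Hochberg adjustment over 19938 genes and a threshold of 0.05. The number of arrays limits the precision. The script was tested on simulated data.

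The members and gene lists were chosen with earlier results of these data known. Text names the members, list genes (examples past the threshold or of largest difference) and, for each member, genes among the 3 most correlated over 22 tumor arrays. Astrocyte and microglia markers and muscle regulators are in the closing section. Alternatives were centring, quantile normalization, a filter on low signal, probe set means, trend and robust eBayes, only the compared groups, array weights, a replicate block, a threshold of 0.01 and arrays left out. Leaving out GFAP cortex tumors 1 and 4 was chosen after seeing the data.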

Additional observations from a re-analysis of the deposited data

Results flagged for a closer look

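Of 60 groups of values tested (each gene in each group of 4 to 7 arrays), 4 held an array far from the others of its group, where chance gives about 1 in 20. Prrx1 was 11.26 in NES hippocampus tumor 1, and 9.99 to 10.08 in the other 3; leaving that array out ended both calls in NES tumors. Twist1 was 7.67 in GFAP cortex tumor 2, below 8.26 to 8.35 in the others. The other two were in normal tissue and small in size. Cnn1 was 6.55 in normal cortex array 3, below 6.81 to 6.85, and Twist1 was 7.07 in normal hippocampus array 3, above 6.93 to 6.95.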

How the results depend on the processing

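Over 13 alternatives and 30 arrays left out in turn, no called value of a member changed sign. Leaving out 1 array ended 18 calls and added 10, and the other alternatives ended 15 and added 85. The number of members called fell to 5 in GFAP cortex tumors and 1 in NES tumors at an adjusted p under 0.01, to 1 in NES tumors with quantile normalization, and to 1 in GFAP cortex tumors without tumors 1 and 4. Array weights gave 8 in GFAP hippocampus, 6 in NES and 8 in SVZ tumors, 1 between SYN1 and GFAP cortex tumors, 4 lower between NES and GFAP hippocampus tumors, 2 between SVZ and GFAP cortex tumors (Snai1 higher, Lum lower), 1 between normal regions and 1 for the difference between regions (Dcn, -1.39, limma adjusted p = 0.0444). Array weights also took the number of all genes higher from 3213 to 4826 in GFAP hippocampus tumors. That number went from 1135 to 3623 in NES and 3236 to 5520 in SVZ tumors. Without the 4 arrays that stand apart the member counts were 8 in GFAP hippocampus tumors, 1 between SYN1 and GFAP cortex, 4 between NES and GFAP hippocampus and 1 between normal regions. Tagln (limma adjusted p = 0.0433), Cnn1 (0.026) and Lum (0.048) were then added in SYN1 cortex, Twist1 (0.0395) in NES and Cnn1 (0.0365) in SVZ tumors. Over all genes, those higher went from 3627 to 4612 in SYN1 cortex, 1135 to 2241 in NES and 3236 to 4339 in SVZ tumors. Without GFAP cortex tumor 1, or tumors 1 and 4, there was 1 between SYN1 and GFAP cortex tumors and 1 between normal regions. With GFAP hippocampus tumors 1 to 4 only there were 1 between SYN1 and GFAP cortex and 4 between NES and GFAP hippocampus. Between normal regions, centring and quantile normalization gave 1 and a fit of these groups alone 2 (Dcn and Lum). The cause was not tested.

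Leaving out 1 array gave 7 to 9 members in GFAP cortex, 5 to 8 in SYN1 cortex, 5 to 6 in GFAP hippocampus, 0 to 3 in NES and 4 to 5 in SVZ tumors, 0 to 1 between SYN1 and GFAP cortex, 0 to 2 between NES and GFAP hippocampus and 0 elsewhere. Arrays of equal number did not all deviate together: correlations ran from -0.362 to 0.522, with no comparison in which every pair was over 0.1. With the replicate block, calls were added for Snai1 in GFAP cortex, Tagln and Cnn1 in SYN1 cortex, Snai1 and Snai2 in GFAP hippocampus, Twist1 in NES and Cnn1 in SVZ tumors. With it Snai1 also passed between SYN1 and GFAP cortex tumors (1.06, adjusted p = 0.0403) and 4 members were lower in NES than in GFAP hippocampus tumors. GFAP hippocampus tumors 5 to 7 have numbers found in no other group and drop out of that fit's differences. Calls over all genes rose with the block too. Those higher went from 1794 to 2413 in GFAP cortex, 3627 to 4328 in SYN1 cortex and 3213 to 4685 in GFAP hippocampus tumors. They went from 1135 to 1922 in NES and 3236 to 3901 in SVZ tumors. Between SYN1 and GFAP cortex tumors calls went from 35 to 950. Lower calls between NES and GFAP hippocampus tumors went from 417 to 1596.

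Counts over all genes moved by over 1.5 times. GFAP cortex went from 5536 to 10610 with array weights, 3368 at 0.01 and 1742 without tumors 1 and 4. NES went from 1706 to between 741 (at 0.01) and 7723 (array weights), and SVZ from 7504 to 11488 (array weights). Other ranges were wide: 1 to 2655 around 35 for SYN1 against GFAP cortex, 0 to 4715 around 1637 for NES against GFAP hippocampus, 0 to 2090 around 534 for GFAP hippocampus against cortex, 0 to 5173 around 1 for SVZ against cortex, 0 to 528 around 63 for SVZ against hippocampus 149 to 2768 around 257 for normal regions and 85 to 1696 around 167 for the difference between regions. Quantile normalization moved the split of higher and lower genes in GFAP cortex tumors from 1794 and 3742 to 2831 and 3255. Centring moved NES tumors from 1135 and 571 to 955 and 1461, with the median of all genes going from -0.045 to -0.202, and NES against GFAP hippocampus from 1220 and 417 to 731 and 1515.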

Other observations

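Of 8 myogenic regulators and fetal muscle genes, only Chrna1, the alpha subunit of the muscle acetylcholine receptor, passed. It rose by 3.44 in GFAP cortex (limma adjusted p = 0.00204), 4.86 in SYN1 cortex (2.25e-05), 2.15 in GFAP hippocampus (0.015) and 3.29 in SVZ tumors (0.000937), and was 1.97 in NES tumors (0.127). Myod1, Myog, Myf5, Myf6, Pax7, Chrng and Myh3 passed in no group. Chrna1 was highest in SYN1 cortex tumors, at a mean of 11.41, where no skeletal muscle marker passed.

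Astrocyte and microglia markers were read beside the members. Of 5 astrocyte markers, 0, 0, 1, 0 and 0 were higher and 1, 2, 0, 0 and 2 lower in GFAP cortex, SYN1 cortex, GFAP hippocampus, NES and SVZ tumors; Gfap passed in none with all arrays, and in GFAP cortex tumors without the 4 arrays that stand apart (2.19, 0.000424) or without tumors 1 and 4 (2.46, 0.0063). Of 5 microglia markers 1, 1, 2, 2 and 1 were higher and none lower, and Aif1 rose in all 5 groups by 0.85 to 1.17.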
